A study of Homo sapiens with 4 samples.

Results

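The genes of the mitochondrial ribosomal proteins were examined in HK-2 cells with and without induction of PRCC-TFE3. They were taken as the protein-coding genes of GENCODE release 44 whose symbol is MRPL or MRPS followed by a digit. This gave 78 genes by symbols alone, with no measured value used. Of the 78, 49 carry the symbol of the large subunit (MRPL) and 29 that of the small subunit (MRPS). A transcript was matched for 77, which are among 33886 genes by symbol with a matched transcript. Each of these 77 passed the low-count filter and was among the 13541 genes tested. MRPL45 had no matched transcript and was not analysed here.

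HK-2 cells are immortalised human proximal tubule cells of the kidney. The cells of every library carried a Tet-On transgene for HA-PRCC-TFE3, an HA-tagged fusion of parts of PRCC and of the transcription factor TFE3, and whether the line is 1 clone is not stated in the labels. Doxy(-) cells had no doxycycline, and Doxy(+) cells had 0.2 microg/ml doxycycline for 24 h, with 2 poly(A) RNA libraries in each group. Cells of both groups were grown in advanced DMEM/F-12 with fetal calf serum, penicillin and streptomycin, and the study's methods add blasticidin S and puromycin for selection. HK-2 cells without the transgene were not among the samples analysed, so effects of the drug and of PRCC-TFE3 cannot be told apart. The labels do not state that libraries 1 and 2 came from separate cultures, so p-values measure only the spread between these libraries, which may be technical.

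The mitochondrial ribosome translates the few mRNAs encoded in mitochondrial DNA, which specify core subunits of the respiratory chain and ATP synthase. Its RNAs come from mitochondrial DNA, whereas its proteins are encoded in the nucleus, made in the cytosol and imported. Some of these proteins have bacterial counterparts and others exist only in mitochondria. Doxycycline, an antibiotic of the tetracycline class, acts on the bacterial ribosome and can also inhibit mitochondrial translation, and renal proximal tubule cells are known for a high content of mitochondria. The files hold RNA levels only, and translation was not measured in them.

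The deposited estimated counts summed to between 14042545 and 16618401 per library. TFE3 had CPM values (estimated counts per 1000000 after TMM scaling) of 66.9 and 69.0 without and of 367 and 322 with doxycycline, so TFE3 was higher in both libraries labelled Doxy(+), and PRCC had 50.2 and 47.2 CPM against 47.7 and 60.1 CPM. Among 14 proximal tubule markers, 5 reached 1 TPM in every library, led by PAX8 at 398 to 462 TPM, whereas LRP2, CUBN, SLC34A1 and AQP1 stayed under 1 TPM. Of the 5 epithelial markers, 4 reached 1 TPM, and the summed level of the list was 1441 to 1465 TPM in Doxy(-) and 1204 to 1205 TPM in Doxy(+). The leukocyte list summed to 173.9 to 188.3 TPM and to 238 to 238.7 TPM, nearly all of it CD68, with PTPRC under 1 TPM and CD3E at 0. The fibroblast list, led by LUM, summed to 218.9 to 236.1 TPM in Doxy(-) and 255.9 to 256.7 TPM in Doxy(+), while its member COL1A1 was called lower by edgeR (log2 fold change -0.40). The endothelial list summed to at most 1.139 TPM. Of the tubule markers, CDH6 was called lower (log2 fold change -0.94) and MME and GGT1 higher (1.31 and 0.25) by edgeR. The part of these markers in the results on ribosomal proteins was not tested.

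First, the level of each gene was examined. Library totals gave a median member between 549.3 and 627 estimated reads, with a lowest value of 56.2 (MRPS18B) and a highest of 2428 (MRPL3). On the per-length TPM scale (transcripts per 1000000), 48 of the 77 averaged at least 50 TPM over the 4 libraries and 4 averaged under 20 TPM. The summed TPM level of the 77 genes was 6005 and 5776 in the Doxy(-) libraries and 5852 and 5793 in the Doxy(+) libraries, so the groups overlapped. The large subunit genes summed to 3994 and 3845 TPM in Doxy(-) and to 3847 and 3816 TPM in Doxy(+). Small subunit genes summed to 2011 and 1931 TPM and to 2005 and 1977 TPM. Both TPM sums overlapped between the groups, that of the large subunit only by 3847 against 3845. On the CPM scale of the tests the sums of all members (3573 and 3497 in Doxy(-), 3428 and 3441 in Doxy(+)) and of the large subunit (2207 and 2169, 2103 and 2099) did not overlap, and those of the small subunit (1366 and 1328, 1325 and 1342) did. The CPM of all tested genes together also summed lower in Doxy(+), to 981500 and 984000 against 1015000 and 1020000.

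In the large subunit the highest levels belonged to MRPL51, MRPL33 and MRPL52. MRPL51, a protein found only in mitochondrial ribosomes, stood at 329 and 303 TPM in Doxy(-) and 316 and 279 TPM in Doxy(+). MRPL33, which has a bacterial counterpart, stood at 289 and 305 TPM against 292 and 282 TPM, and MRPL52 at 188 and 211 TPM against 183 and 194 TPM. The 3 genes overlapped between groups on this scale, as did the levels of MRPL51 and MRPL33 with each other. The lowest were MRPL50 at 11.1 to 12.3 TPM, MRPL57 at 14.5 to 17.7 TPM and MRPL30 at 18.1 to 22.5 TPM over the 4 libraries. In the small subunit MRPS24 led with 183 and 168 TPM in Doxy(-) and 177 and 155 TPM in Doxy(+). MRPS16 and MRPS15 came next, with MRPS15 at 109 and 113 TPM against 128 and 129 TPM (log2 fold change 0.13, adjusted p 0.128 in edgeR). MRPS31 (13.8 to 17.1 TPM) and MRPS17 (16.4 to 22.0 TPM) were near the bottom. MRPS18B was lowest at 4.71 to 5.80 TPM. Its value is uncertain, because 12 identifiers without a match held the length and counts of its transcripts, and adding them raised its estimated count from 56.2 and 63.7 to 385 and 446 in Doxy(-) and from 58.4 and 69.3 to 404 and 485 in Doxy(+).

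**Figure D1:**
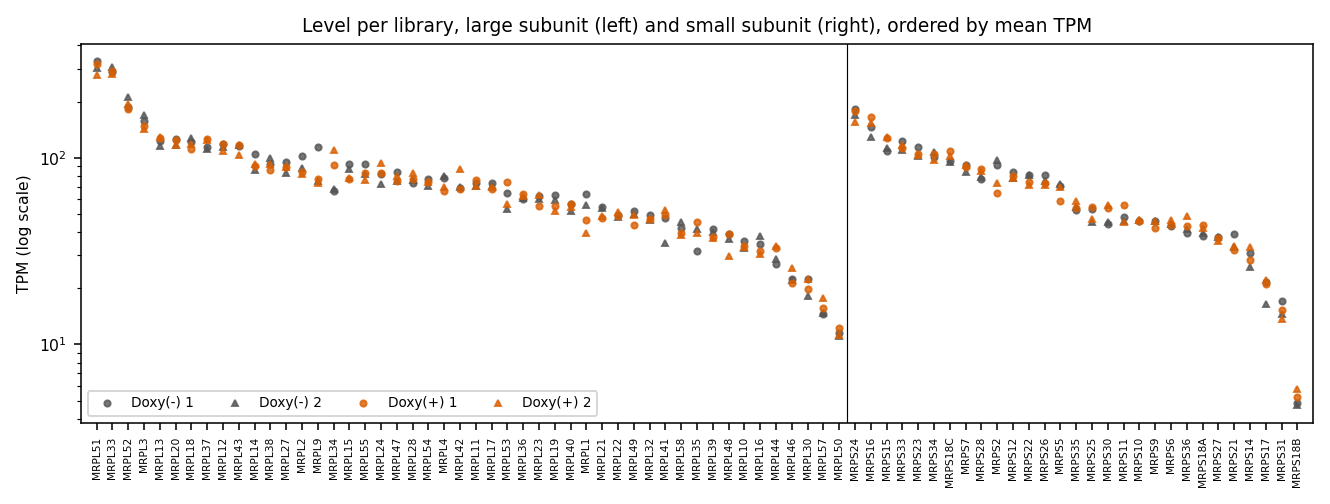
Level of each of the 77 measured genes in each library, as TPM on a log scale, ordered within each subunit by the mean of the 4 libraries. Grey marks are Doxy(-) and orange marks Doxy(+), circles library 1 and triangles library 2. The levels run from about 5 TPM for MRPS18B to 329 TPM for MRPL51, and the marks of the groups lie close together for most genes.

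Next, Doxy(+) was compared with Doxy(-) gene by gene with edgeR's quasi-likelihood test, two-sided, with p-values adjusted over all 13541 genes. At an adjusted p under 0.05, 3 members were higher and 3 lower in Doxy(+), which is 7.79% of the 77 against 19.4% of all genes tested. In all genes, 9.81% were called higher and 9.59% lower. None of the 77 was called past a log2 fold change of 1 in either direction (1.97% of all genes, 1.5% higher and 0.473% lower), and the edgeR test gave 18 of them an unadjusted p under 0.05, which is 23.4% against 33.4% of all genes. Of these 18, 7 were higher and 11 lower, where 16.9% and 16.6% of all genes were. Log2 fold changes ran from -0.32 to 0.48 with a median of -0.04, against a median of 0.00 over all genes. They were above 0 for 28 of the 77, beside 50.1% of all genes, and for 36 of the 77 by limma on log2(TPM + 1), beside 55.8% of all genes on that scale. For 72 of the 77 (93.5%) the change was within 0.25 of 0, compared with 64.7% of all genes. In bulk RNA of a culture, fewer cells that express a gene and less of its RNA per cell cannot be told apart. The members' median SE was 0.073, and that of all genes 0.0916. The CPM values of the groups did not overlap for 50 members (64.9%), 19 higher and 31 lower, beside 61.2% of all genes (31.1% higher and 30.1% lower).

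The calls depended on the test. DESeq2 called 1 of the 77, MRPL34, and 10.8% of the genes to which it gave an adjusted p. Limma on log2(TPM + 1) called 0 members and 1.91% of genes, with 5 members and 23% of all genes at an unadjusted p under 0.05. Without Doxy(+) 1 and without Doxy(+) 2 in turn, the 6 called members kept their direction, with MRPL34 at log2 fold changes of 0.53 and 0.43. The CPM groups of these 6 did not overlap, so leaving out a library could hardly reverse a direction. A kept direction therefore does not show that the calls hold.

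**Figure D2:**
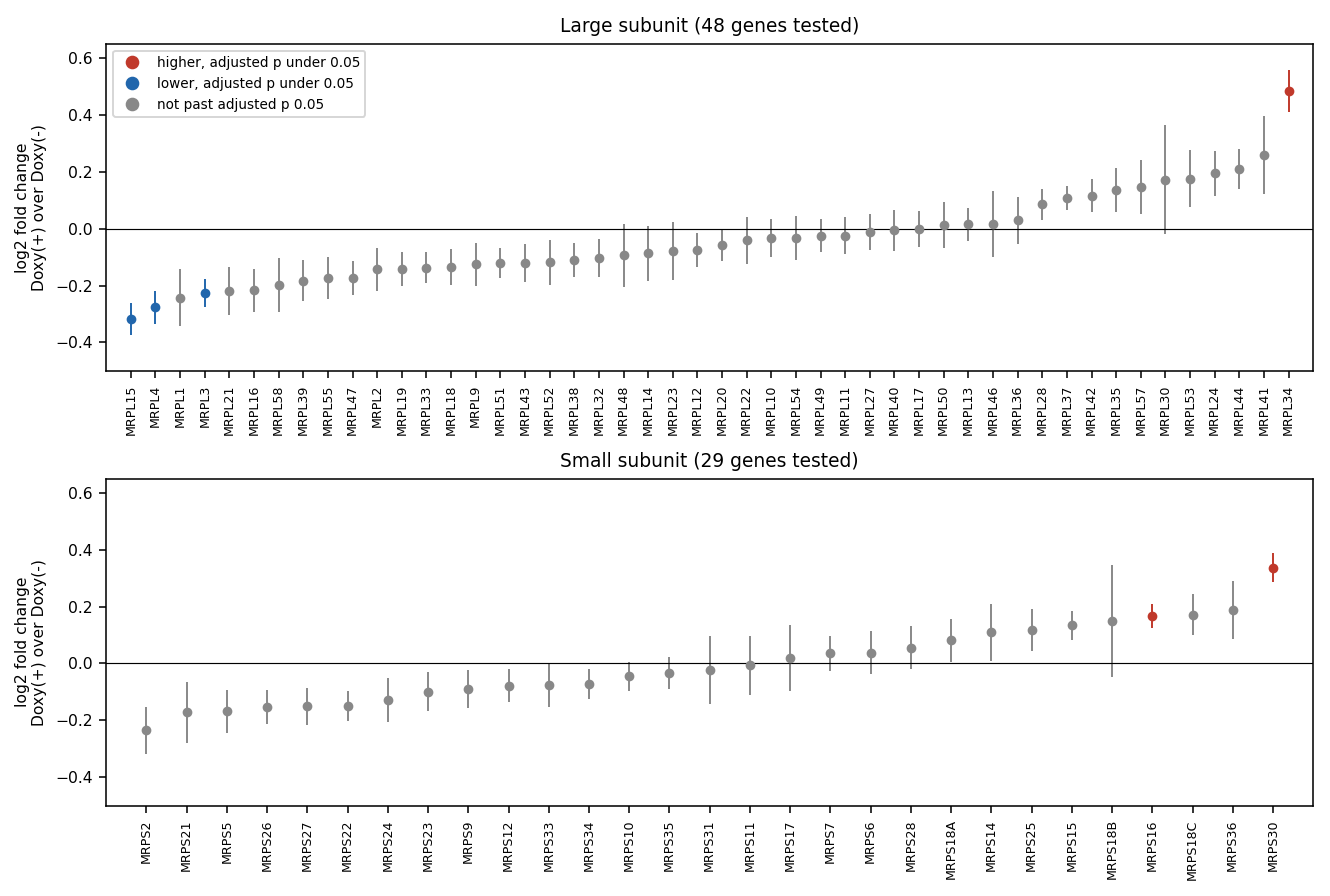
Log2 fold change of each gene, Doxy(+) over Doxy(-), in the large subunit (top) and the small subunit (bottom), ordered by value. Points are edgeR estimates, bars are 1 SE to each side, red marks a higher and blue a lower gene at an adjusted p under 0.05, and grey marks the rest. The called genes are MRPL34 (0.48), MRPS30 (0.34) and MRPS16 (0.17) on the higher side and MRPL15 (-0.32), MRPL4 (-0.28) and MRPL3 (-0.22) on the lower side.

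In the large subunit, 1 gene was higher and 3 were lower of 48 tested (8.33%), and the edgeR test gave 12 an unadjusted p under 0.05, 4 higher and 8 lower. Fold changes were above 0 for 15 genes and below 0 for 33, with a median of -0.07 and a middle range of -0.14 to 0.02. The groups did not overlap for 30 genes (62.5%), 10 higher and 20 lower in CPM. On the TPM scale they did not overlap for 22, 9 higher and 13 lower, where 54.8% of all genes did not overlap, 31.9% higher and 22.8% lower. In the small subunit, 2 of 29 were higher (6.90%) and 0 lower by edgeR, with 3 higher and 3 lower at an unadjusted p under 0.05, and DESeq2 called 0. Of the 29, 13 were above 0, and the median was -0.02 with a middle range of -0.10 to 0.11. The groups did not overlap for 20 of the 29 (69.0%), 9 higher and 11 lower in CPM. In TPM, 8 were higher and 5 lower without overlap. By limma on log2(TPM + 1), a scale on which the median of all genes was 0.033, the medians of the large and small subunit were -0.034 and 0.044. No test of the subunits against each other was made.

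MRPL34 (ENSG00000130312.7, chromosome 19, 17292609 to 17306843, plus strand, hg38), which encodes a large subunit protein with a bacterial counterpart, differed most. Its level was 66.5 and 68.0 TPM in the Doxy(-) libraries and 91.6 and 109.9 TPM in the Doxy(+) libraries. Both Doxy(+) libraries were above both Doxy(-) libraries. Its CPM was 28.6 ± 1.33 in Doxy(-) and 40.0 ± 1.99 in Doxy(+) (SD, n = 2 each), a 1.40-fold rise with a log2 fold change of 0.48 (SE 0.0733, adjusted p 0.00708 in edgeR). The exons of MRPL34 overlap those of ABHD8 on the other strand, and whether the authors' counting used strand is not given in the sources used here. ABHD8 had a log2 fold change of 0.20 (edgeR adjusted p 0.166).

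MRPS30 (ENSG00000112996.11, chromosome 5, 44808947 to 44820428, plus strand) bears a small subunit symbol, but its protein sits in the large subunit of the assembled ribosome and is found only in mitochondria. It stood at 44.4 and 45.4 TPM in Doxy(-) and at 53.7 and 55.6 TPM in Doxy(+), and the groups did not overlap. In CPM it rose from 46.5 ± 0.204 to 58.7 ± 0.0166 (SD, n = 2 each), with a log2 fold change of 0.34 (SE 0.0527, adjusted p 0.00796 in edgeR). MRPS16 (ENSG00000182180.14, chromosome 10, 73248843 to 73252693, minus strand), a small subunit protein with a bacterial counterpart, is known as a gene of inherited mitochondrial disease. It stood at 147 and 129 TPM in Doxy(-) and at 165 and 154 TPM in Doxy(+). Its Doxy(+) libraries were above both Doxy(-) libraries by a smaller margin. The log2 fold change was 0.17 (SE 0.0434, adjusted p 0.0441 in edgeR), and of 15 alternative fits 4 called it, with edgeR, DESeq2 or limma adjusted p between 0.0426 and 0.356.

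The 3 lower genes all encode large subunit proteins with bacterial counterparts. MRPL15 (ENSG00000137547.9, chromosome 8, 54135241 to 54148514, plus strand) stood at 92.3 and 86.6 TPM in Doxy(-) and at 76.7 and 77.8 TPM in Doxy(+). Both Doxy(+) libraries were lower, and its CPM fell from 65.2 ± 2.55 to 52.3 ± 0.254 (SD, n = 2 each, log2 fold change -0.32, SE 0.0568, adjusted p 0.0132 in edgeR). MRPL4 (ENSG00000105364.14, chromosome 19, 10251901 to 10260055, plus strand) stood at 78.2 and 79.5 TPM against 66.4 and 69.6 TPM. Again the groups did not overlap, with a log2 fold change of -0.28 (SE 0.0589, adjusted p 0.0236 in edgeR). MRPL3 (ENSG00000114686.9, chromosome 3, 131462212 to 131502983, minus strand), whose bacterial counterpart lies close to the peptidyl transferase centre, stood at 157 and 170 TPM against 148 and 143 TPM. Its log2 fold change was -0.22 (SE 0.0494, adjusted p 0.0262 in edgeR), the groups being apart on both scales. Of the 15 alternative fits, MRPL15 was called in 9, MRPL4 in 8, MRPL3 in 9, MRPS30 in 9 and MRPL34 in 13.

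**Figure D3:**
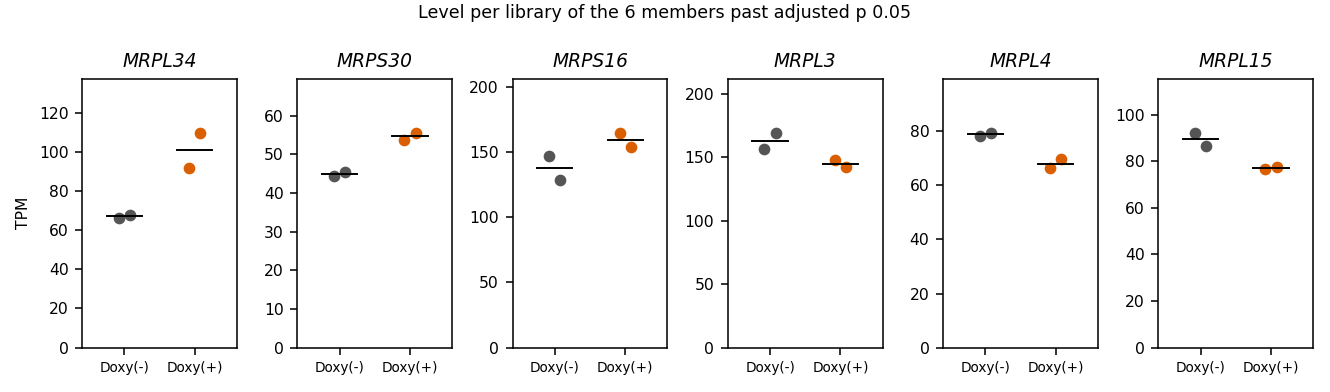
TPM of the 6 genes past an adjusted p of 0.05 in edgeR, each point 1 library and each bar the mean of the group of 2, on axes that start at 0. MRPL34, MRPS30 and MRPS16 are higher in both Doxy(+) libraries, and MRPL3, MRPL4 and MRPL15 lower. MRPL34 shows the widest gap, from 66.5 and 68.0 TPM to 91.6 and 109.9 TPM.

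The members were then grouped by where their proteins sit and by origin, with MRPS18A and MRPS30 placed in the large subunit. Of 29 large subunit proteins with a bacterial counterpart, edgeR called 1 higher and 3 lower, beside 9.81% and 9.59% of all genes, with a median of -0.08, and DESeq2 called 1 higher and 0 lower. Of 21 mitochondria-specific ones edgeR called 1 higher and 0 lower and DESeq2 0, with a median of -0.01 and, by edgeR, 3 higher and 1 lower at an unadjusted p under 0.05. The difference between these groups was not tested. The 16 small subunit proteins with a bacterial counterpart held 1 higher gene and had a median of 0.01. The 10 mitochondria-specific small subunit proteins had a median of -0.07, with 0 called by edgeR or DESeq2 and 2 lower at an unadjusted edgeR p under 0.05.

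The factor-binding stalk, the flexible arm to which translation factors dock, is represented by MRPL10, MRPL11 and MRPL12. Their log2 fold changes were -0.03, -0.02 and -0.08, and CPM overlapped between the groups for all 3. At the polypeptide exit tunnel, through which the growing chain leaves, MRPL17, MRPL22, MRPL23, MRPL24 and MRPL47 had log2 fold changes of -0.00, -0.04, -0.08, 0.19 and -0.17. MRPL24, at 81.6 and 72.5 TPM in Doxy(-) and 83.3 and 93.2 TPM in Doxy(+), passed the test only without Doxy(-) 1 (edgeR adjusted p 0.0377, against 0.149 in all 4 libraries and 0.0377 to 0.643 over the alternatives). In the central protuberance, the crest at the interface of the subunits, MRPL38, MRPL40, MRPL46 and MRPL48 lay between -0.11 and 0.02. Neither edgeR nor DESeq2 called a gene of the stalk, the tunnel or the protuberance, and at an unadjusted edgeR p under 0.05 the tunnel had 1 higher and 1 lower and the other two groups 0.

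The 3 paralogs of the bacterial S18 protein lay on the same side of 0. MRPS18A stood at 38.3 and 39.7 TPM in Doxy(-) and 43.8 and 42.2 TPM in Doxy(+), MRPS18C at 95.9 and 94.8 TPM against 109 and 102 TPM. The low MRPS18B stood at 4.85 and 4.71 TPM against 5.21 and 5.80 TPM. In each, both Doxy(+) libraries were above both Doxy(-) libraries, as for 31.1% of all genes by CPM. In the order named, the log2 fold changes were 0.08, 0.17 and 0.15, with SEs of 0.0742, 0.071 and 0.196. No paralog passed the test, with edgeR adjusted p of 0.505, 0.152 and 0.649 in that order, 0 at an unadjusted p under 0.05 and 0 by DESeq2.

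A pair of members has roles apart from the structure of the ribosome. MRPL58, a peptidyl-tRNA hydrolase that frees stalled ribosomes, stood at 42.2 and 45.2 TPM in Doxy(-) and 39.8 and 38.5 TPM in Doxy(+), with a log2 fold change of -0.20 (SE 0.0953, adjusted p 0.210 in edgeR). MRPS36, now known as a subunit of the oxoglutarate dehydrogenase complex, stood at 39.7 and 41.3 TPM against 43.2 and 49.0 TPM (log2 fold change 0.19, SE 0.103, adjusted p 0.259 in edgeR). The groups did not overlap for either, and neither passed the test. Just short of the limit were MRPL44 (0.21, edgeR adjusted p 0.0863), MRPL47 (-0.17, 0.101), MRPS22 (-0.15, 0.102), MRPL16 (-0.22, 0.105) and MRPS2 (-0.24, 0.105), chosen for the list after their values were seen. MRPS2 had the most negative value of the small subunit, at 91.8 and 96.9 TPM in Doxy(-) and 64.9 and 72.8 TPM in Doxy(+), and it was called when counts were scaled by transcript length. Its short transcript MRPS2-206, without a defined coding sequence, had estimated counts of 65.3 and 157 in Doxy(-) against 25.05 and 8.54. The coding MRPS2-201 had 806 and 792 against 660 and 758.

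The sequences upstream of the start sites were read to see what the members share. RefSeq on GRCh38.p14 gave promoter entries for 69 of the 78 genes, with 85 start sites, and the 250 bases before each start were searched on both strands. CACGTG, the E-box core that TFE3 and its relatives bind, was present upstream of 8 of the 69 (11.6%), beside 9.73% of 15843 protein-coding genes. These were MRPL22, MRPL36, MRPL37, MRPL45, MRPL49, MRPS18C, MRPS2 and MRPS33. Of the 7 that were tested, edgeR called 0, 3 were above 0 and the median log2 fold change was -0.02, and the 61 without the letters had a median of -0.06. The longer E-box, which is CACGTG with GT before and AC after it and reads alike on both strands, was found in MRPS2 alone (1.45% of members, 0.574% of protein-coding genes). MRPL34 had 4 start sites, none with CACGTG in this window.

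CCGGAAG or its complement CTTCCGG, the core that ETS factors such as GABP bind, was upstream of 25 members (36.2%), beside 14% of protein-coding genes. Of these 25, 1 was called lower (MRPL3) and 4 were above 0, with a median of -0.09 against -0.01 for the 43 others. CCAAT or its complement ATTGG was upstream of 21 members (30.4%), beside 40.2%. The CACGTG and CCGGAAG letters do not overlap each other. A match of letters is a description of the sequence and was not tested as a binding site.

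Sequences before the RefSeq start of the higher gene MRPS30, the lower gene MRPL3 and the E-box genes MRPS18C and MRPS2 are shown 5′ to 3′ on the strand of the gene, with the letters searched in capitals, to set the called members beside those with an E-box. MRPS30 is chr5:44808697-44808946 (plus strand), ends 1 base before the start and holds ATTGG at 2 places. MRPL3 is chr3:131502984-131503221 (minus strand) and ends 13 bases before the start, with CCGGAAG. MRPS18C is chr4:83455824-83455982 (plus strand) and ends 76 bases before the start, with the letters of all 3 cores. Its last 51 bases lie inside the gene as GENCODE annotates it, in an exon of a transcript that starts earlier. MRPS2 is the 30 bases chr9:135499897-135499926 (plus strand), ending 39 bases before 1 of its start sites, with the longer E-box, within an exon of PIERCE1 on the other strand. The first 3 stretches leave out bases annotated as UTR, and that of MRPS30 runs into an exon of the noncoding MRPS30-DT on the other strand.
MRPS30: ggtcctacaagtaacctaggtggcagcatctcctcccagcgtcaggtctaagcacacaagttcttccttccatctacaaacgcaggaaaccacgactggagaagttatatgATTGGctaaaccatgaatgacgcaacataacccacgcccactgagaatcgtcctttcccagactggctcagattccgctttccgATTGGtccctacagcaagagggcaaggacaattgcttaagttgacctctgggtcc
MRPL3: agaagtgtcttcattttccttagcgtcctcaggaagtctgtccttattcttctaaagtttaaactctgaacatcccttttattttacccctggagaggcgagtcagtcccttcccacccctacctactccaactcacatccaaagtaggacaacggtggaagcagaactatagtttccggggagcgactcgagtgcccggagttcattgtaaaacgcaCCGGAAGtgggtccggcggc
MRPS18C: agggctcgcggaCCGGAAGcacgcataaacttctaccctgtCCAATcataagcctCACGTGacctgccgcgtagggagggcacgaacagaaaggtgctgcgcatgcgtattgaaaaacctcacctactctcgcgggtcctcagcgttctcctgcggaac
MRPS2: cgacggccagGTCACGTGACtggggagcga
MRPS30 and MRPL3 hold no CACGTG in these stretches, while MRPS18C, with log2 fold change 0.17, and MRPS2, with -0.24, do and were not called.

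Finally, the members were set beside other genes of mitochondrial translation. The 5 mitoribosomal proteins with other symbols (DAP3, AURKAIP1, PTCD3, CHCHD1 and GADD45GIP1) had a median of -0.16, with 0 called by edgeR or DESeq2. At an unadjusted edgeR p under 0.05, 3 of the 5 were lower, beside 16.6% of all genes. DAP3, a GTP-binding small subunit protein, had 130.4 and 128 CPM in Doxy(-) against 119.8 and 119 CPM (log2 fold change -0.11, SE 0.03995, adjusted p 0.106 in edgeR). AURKAIP1 had 95.8 and 87.6 CPM against 79.1 and 82.0 CPM (-0.19, SE 0.0608, adjusted p 0.0863 in edgeR). Both were lower in each Doxy(+) library without passing the test. Of 28 genes for ribosome assembly and rRNA modification, edgeR called MTG1, a GTPase of large subunit assembly, lower at -0.25 (adjusted p 0.0329), and RBFA, a small subunit assembly factor, was at -0.27 (0.0601). MTG1 was the only gene of the list called by edgeR (3.57%, beside 19.4% of all genes tested). The list had a median of -0.04, close to that of the ribosomal proteins.

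The list of 20 translation factors also held LRPPRC, SLIRP and OXA1L, which are not translation factors in the strict sense. EdgeR called TUFM, the elongation factor that brings aminoacyl-tRNA, lower, from 168 and 166 CPM to 148 and 146 CPM (-0.18, adjusted p 0.0193). TUFM was the only gene of this list called by edgeR (5%, beside 19.4% of all genes tested). GUF1, a ribosome back-translocase, was at 0.18 (edgeR adjusted p 0.0655), and the median of the list was 0.06. DESeq2 called no gene of the assembly list or the translation factors, with 1 of each lower at an unadjusted p under 0.05. The list of 21 aminoacyl-tRNA synthetases also held QRSL1, GATB and GATC, which encode an amidotransferase and no synthetase. Of these 21 genes edgeR called 1 higher and 3 lower, which is 19%, close to the 19.4% of all genes tested. DESeq2 called 1 higher and 1 lower, and limma 0, with 1 higher at an unadjusted p under 0.05. Without either Doxy(+) library edgeR called 1 higher and 0 lower. CARS2, for cysteine, rose from 31.4 and 28.7 CPM to 51.9 and 56.0 CPM (0.85, edgeR adjusted p 0.00103), while KARS1, which serves both the cytosol and mitochondria with lysyl-tRNA, fell from 181 and 176 CPM to 151 and 151 CPM (-0.24, edgeR adjusted p 0.00724). The other two lower genes were HARS2 (-0.29) and SARS2 (-0.32).

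The 13 mRNAs that these ribosomes translate were measured in the same libraries. Their summed level was 79060 and 89670 TPM in Doxy(-) and 81350 and 84820 TPM in Doxy(+), so Doxy(+) lay inside the range of Doxy(-). EdgeR called 0 of the 13, and 0 had an unadjusted edgeR p under 0.05. DESeq2 called 0, with 1 lower at an unadjusted p under 0.05. The median in edgeR was -0.08. The median changed sign with the Doxy(-) library that was left out. Without Doxy(-) 1 it was -0.18, and without Doxy(-) 2 it was 0.04. The direction thus rested on which Doxy(-) library was used, and the 0 calls do not show that these mRNAs were unchanged. MT-CO1 and MT-CO3, which encode subunits of cytochrome c oxidase, had log2 fold changes of -0.08 and -0.10 (edgeR adjusted p 0.228 and 0.259).

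**Figure D4:**
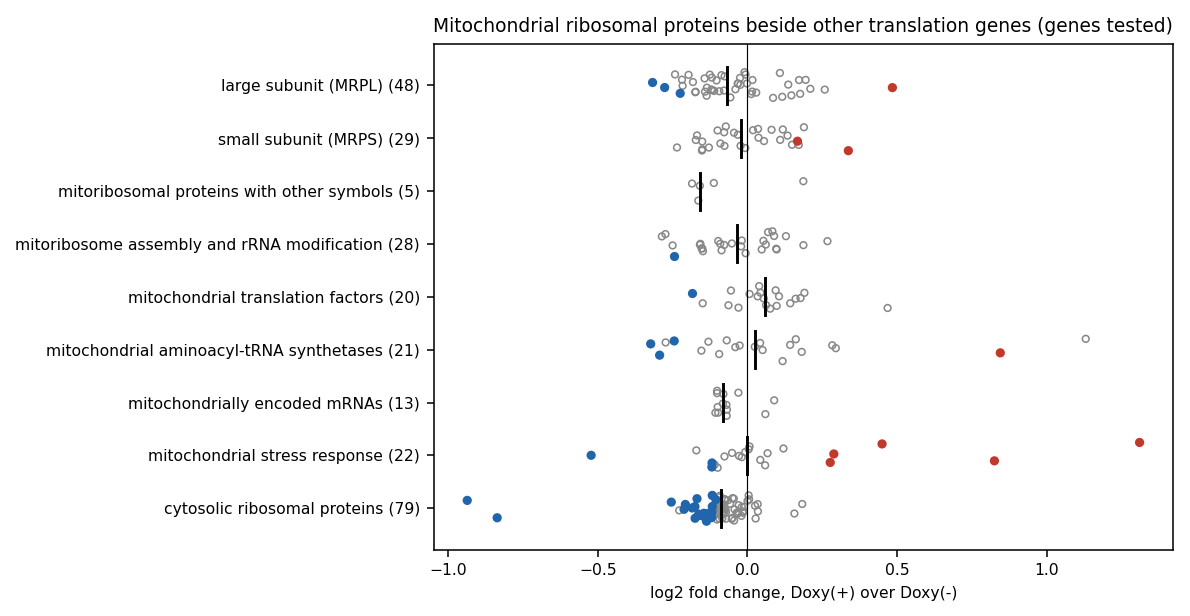
Log2 fold change of each tested gene, Doxy(+) over Doxy(-), for the large and small subunit and 7 other lists, with the number tested in brackets. Each point is 1 gene, a black bar is the median of the list, red and blue are genes called higher and lower by edgeR at an adjusted p under 0.05, and open points are the rest. The medians of the subunits are -0.07 and -0.02, and the widest spread is in the stress response and the aminoacyl-tRNA synthetases, where the open point at 1.13 is IARS2 with an SE of 1.44.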

How the data were processed

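Libraries from a stranded poly(A) kit were sequenced as single-end reads. The submitters' processing notes name Trim Galore 0.6.6, cutadapt 2.5 and STAR 2.7.9a on hg38, and the methods add RSEM, a UCSC hg38 annotation and DESeq2, but the deposited tables hold Ensembl identifiers in the layout of kallisto. A version of kallisto and an Ensembl release are not given in the sources used here. The deposited expected counts are estimated reads for each of 180253 transcripts, not normalized and divided where a read matches several transcripts. The deposited TPM values are scaled by the authors' quantifier to 1000000 per library, and effective lengths were used only for length-scaled counts.

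Identifiers were matched to GENCODE release 44 (150691, 83.6%), and estimated counts were summed by symbol and rounded. Unmatched identifiers held 9.66% to 9.89% of counts and stayed out. Of the 77 measured members, 35 have an annotated pseudogene, 27 overlap another gene and 10 have under 50% of their count on coding transcripts, so their reads can be divided. EdgeR 4.0.16 (R 4.3.3) was run on all genes with TMM, filterByExpr, glmQLFit and glmQLFTest and the group as the only term, two-sided, with Benjamini-Hochberg adjustment. Common biological variation was 6.47%. Scripts were tested on simulated data. Deviations of same-numbered libraries had a correlation of -0.00917 over the genes, which does not settle whether those libraries were paired. The replicates differed by more than sampling noise (chi-square per degree of freedom 4.02 and 2.88).

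Named were the called members, the 3 highest and 3 lowest per subunit by TPM, the S18 paralogs, MRPS30, MRPS36, MRPL58, the stalk, tunnel and protuberance genes and the 2 smallest p of each other list. Members, lists and rule were chosen with earlier results of these data known. Alternatives were RLE factors, other filters, DESeq2 1.42.0, limma 3.58.1 on log2(TPM + 1) and log2(TPM + 0.1), a replicate block, leaving out each library, coding transcripts only, copies added, length-scaled and unrounded counts, other limits and subunits by structure.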

Additional observations from a re-analysis of the deposited data

How the results depend on the processing

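The 6 called members kept their direction in all 15 alternative fits. Their CPM groups did not overlap and every fit drew on the same libraries, so this outcome was nearly fixed in advance. RLE factors, a mean CPM of at least 1, added copies and unrounded counts called the same 6. Without the filter, or with the replicate block, MRPS16 was lost (edgeR adjusted p 0.0557 and 0.0513), so the small subunit had 1 higher gene. The block left 5 of 6 member calls and changed no other call of a member. The labels do not state what the numbers mark, so whether they pair the libraries is not known.

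DESeq2 called 708 genes higher and 714 lower, with 0 large-subunit genes lower, 0 small-subunit genes higher and 18 genes of the other lists lower. Limma on log2(TPM + 1) called 196 and 63 genes, 0 members and 2 higher and 1 lower genes of the other lists, with subunit medians of -0.034 and 0.044. Limma on log2(TPM + 0.1) called 15 and 3 genes, 0 members and 0 genes of the other lists, with medians of -0.034 and 0.045. Coding transcripts alone gave 817 and 783 genes, 1 small-subunit gene higher, 13 genes of the other lists lower, MRPL40 at 0.26, and MRPL23 lower at -7.50, where its coding transcript MRPL23-202 had 21.8 and 23.6 estimated reads in Doxy(-) and 0 in Doxy(+). Length-scaled counts gave 678 and 586 genes, 0 large-subunit genes lower, and in the small subunit 0 higher and 1 lower (MRPS2), with 8 genes of the other lists lower. An adjusted p under 0.01 left 626 and 559 genes, 0 large-subunit genes lower, 1 small-subunit gene higher and 5 genes of the other lists lower. A log2 fold change over 1 as well left 203 and 64 genes, 0 members and 1 higher and 0 lower genes of the other lists. Subunits by structure gave 2 higher genes in the large and 1 in the small subunit. The causes were not tested.

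Leaving out 1 library gave 665 to 1309 genes higher and 581 to 1377 lower, with 1 to 3 large-subunit genes higher and 0 to 3 lower, 0 to 1 small-subunit genes higher and 4 to 11 higher and 2 to 58 lower genes of the other lists. The large-subunit median ran from -0.072 to -0.025. Without Doxy(-) 1, MRPL24 and MRPL41 were gained and MRPS16 lost. Without Doxy(-) 2, MRPL1 was gained and MRPL4 and MRPS16 lost. Without Doxy(+) 1 and without Doxy(+) 2 in turn, MRPL23 was at 0.03 and -0.19, MRPL30 at 0.43 and -0.14 and MRPL46 at 0.13 and -0.11. With 2 libraries per group, small changes in level are at the limit of what these libraries resolve. The SEs of edgeR cover counting error and the spread between these libraries, which may be technical.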

Other observations

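Genes listed for the mitochondrial stress response and genes of the cytosolic ribosome were read beside the mitochondrial ribosomal proteins. The stress list is not specific to mitochondria, as DDIT3, TRIB3 and GDF15 also respond to other stresses. Of 22 stress genes, edgeR called 5 higher and 3 lower (36.4%, beside 19.4% of all genes tested). DESeq2 called 4 higher and 2 lower, beside 10.8% of the genes to which it gave an adjusted p. Limma on log2(TPM + 1) called 2 higher and 0 lower, beside 1.91% of genes. DDIT3, the transcription factor CHOP, had 31.7 and 26.6 CPM in Doxy(-) against 72.5 and 71.9 CPM, and the secreted factor GDF15 at 183 and 169 CPM against 305 and 319 CPM. Both were higher in each Doxy(+) library, with log2 fold changes of 1.31 and 0.83 (edgeR adjusted p 0.000396 and 0.000314). TRIB3 (0.45), the protease gene LONP1 (0.29) and PCK2 (0.28) were also called higher, and PYCR1 (-0.52), ATF4 (-0.12) and the chaperonin gene HSPD1 (-0.12) lower. The other chaperone and protease genes of mitochondria on the list were not called by edgeR. These were HSPE1 (-0.03), HSPA9 (0.01), CLPP (0.06), YME1L1 (-0.02) and DNAJA3 (-0.10). The median of the list was -0.00.

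Of 79 cytosolic ribosomal protein genes, edgeR called 0 higher and 20 lower (25.3%), beside 9.81% and 9.59% of all genes tested. At an unadjusted edgeR p under 0.05, 0 were higher and 38 lower (48.1%), beside 16.9% and 16.6% of all genes. The median was -0.09 and 70 genes were below 0. DESeq2 called 0 higher and 15 lower. Limma on log2(TPM + 1) called 0 higher and 1 lower, with 2 lower at an unadjusted p under 0.05 and a median of -0.05. RPL24 had 579 and 580.0 CPM in Doxy(-) against 505 and 495 CPM (-0.21, edgeR adjusted p 0.00485), and RPL4 at 1062 and 1078 CPM against 931 and 951 CPM (-0.19, edgeR adjusted p 0.00672). The count of genes called lower rested on which libraries were compared, whereas the median stayed below 0. It was -0.10 without Doxy(+) 1, -0.07 without Doxy(+) 2, -0.06 without Doxy(-) 1 and -0.13 without Doxy(-) 2.

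Values of individual transcripts depend on the division of shared reads by the quantifier. For MRPS30 the coding transcript MRPS30-202 had an estimated count of 319 and 357 without and of 449 and 441 with doxycycline. MRPL15-201 had 848 and 920 against 618 and 645, and MRPL3-201 had 1311 and 1568 against 1115 and 1040. In these 3 transcripts the groups did not overlap. Other coding transcripts of these genes went otherwise, with MRPL3-209 at 572 and 758 against 586 and 713, MRPL15-203 at 15.8 and 12.3 against 52.8 and 23.2 and MRPL15-202 at 0.0966 and 0 against 4.88 and 32.1. The reads of MRPL34 were spread over 4 coding transcripts, of which MRPL34-202 had 58.3 and 35.9 against 53.4 and 172, and the 4 differed in which library was highest.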
